A study of Mus musculus with 10 samples.

Results

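Endothelial cells line blood and lymph vessels, and 10 genes that mark them were followed here in whole mouse colon: the receptors Kdr, Flt1, Tek and Tie1, the junction proteins Cdh5, Pecam1 and Esam, the surface proteins Emcn and Eng, and the clotting protein Vwf. The members were taken by name, as every array probe that carries one of these 10 gene symbols, and they account for 18 of 56605 probes and 10 of 36610 gene symbols on the array. In KO colon 2 months after injury all 10 genes lay above WT in 1 of the 2 mouse pairs, from 1.07-fold for Pecam1 to 2.42-fold for Emcn, and close to WT in the other. Of these, 6 entered the test over all genes. None of them passed, nor did any other of the 14839 genes tested. Kdr, Esam and Eng, read with outlier spots kept, and Tie1, which did not pass the filter on background, were outside that test.

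Vascular endothelial cells respond to growth factors of the VEGF family, which they sense through the kinases VEGFR2 (Kdr) and VEGFR1 (Flt1), and to angiopoietins, which act on the kinase TIE2 (Tek) with its partner TIE1. VE-cadherin (Cdh5), PECAM1 and ESAM hold neighbouring endothelial cells together and govern what crosses between them. In the colon a capillary network lies around each crypt beneath the epithelium, so endothelial transcripts in whole tissue come from a small share of the cells, while cultured epithelium has no vessels.

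The tissue came from male mice of a cross of Axin2CreERT2 with Trp53 fl/fl, in which tamoxifen, given by injection into the abdomen, switches on a recombinase in cells that express Axin2. Trp53 encodes p53, a transcription factor that stops or kills damaged cells, and the series title concerns its part in closing regeneration of the colon after colitis. Both the 2 mice labelled KO and the 2 labelled WT drank 2% dextran sodium sulfate (DSS), a polymer that injures the colon lining, for 5 to 7 days and were killed 2 months later. The labels do not say whether WT mice carried the recombinase or the fl/fl alleles, and the driver restricts deletion to Axin2-expressing cells, so the KO is not a deletion in every cell of the tissue. RNA of each KO mouse was set against that of the WT mouse of the same replicate number, on 2 arrays with the dyes exchanged (pair 1 and pair 2). Organoids are epithelial cultures started from colon crypts, and they came from VillinCreERT2 mice with Trp53 fl/fl, where the recombinase is active in gut epithelium. KO cultures were made with 800 nM 4OH-tamoxifen for 2 days and selected with Nutlin-3A, which depletes cells that have p53. WT and KO were grown in full medium (0.328 nM surrogate Wnt (sWnt), 3 µM CHIR-99021, 25% R-spondin 1 conditioned medium, 100 ng/ml noggin, 50 ng/ml EGF and 0.5 µM A83-01), and KOWI, which are KO cultures, without sWnt and CHIR-99021. There were 2 samples of each, on 6 arrays, and the effect of the medium and that of adapting to it cannot be told apart in KOWI.

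In tissue 16498 genes had a probe well above background in every channel of KO or of WT, and 14839 of them had no spot marked as an outlier by the scanner software and were tested. All 9 colon epithelium genes checked were detected in tissue, as were all 8 skeletal muscle and all 6 squamous epithelium genes. Trp53 itself stood at -0.46 (pair 1) and 0.04 (pair 2) on the log2 KO over WT scale, from a probe that was not checked against the deleted exons. Across genes, which are not independent replicates, the ratios of pair 1 and pair 2 had a Pearson r of 0.524. Levels are not compared between tissue and organoids, whose slides and scans differed, nor between probes.

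Flt1 is read by 4 probes, which is shown because they sit on different transcripts of the gene and give different values. The first 30 bases of each are printed with no base singled out.

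Flt1, base 6224 of the full-length transcript: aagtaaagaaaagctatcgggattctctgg
Flt1, base 2302 of the short transcript: aggaggaatgattgtaccacacaaagtcat
Flt1, base 4102 of the short transcript: tcctcagaacaaaacctgaactgaactgag
Flt1, base 1858 of an Ensembl transcript: tccctatcccaactacacattcaatcttct

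These probes lie on the minus strand of mm9 at chr5:148373791-148373850, chr5:148450688-148450747, chr5:148448888-148448947 and chr5:148465976-148466035, in the same order. The first is the brightest in tissue and stands for the gene below. The probes that stand for the other members lie on the plus strand for Cdh5 (chr8:106668159-106668218), Tek (chr4:94540861-94540919), Vwf (chr6:125636551-125636610), Esam (chr9:37345795-37345854) and Eng (chr2:32537268-32537327), and on the minus strand for Tie1 (chr4:118144132-118144191), all on mm9. Whether a probe lies in an exon, intron or UTR was not worked out, since no annotation of that build was used.

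Promoter windows of 250 bases before the gene start, credited to RefSeq on build GRCm38.p6, were matched for 6 of the 10 genes: Kdr, Tek, Flt1, Emcn, Eng and Tie1. ETS-family factors bind many endothelial promoters, and the windows of Emcn and Flt1, which showed the largest pair 2 differences, are printed with that of Kdr to show where the ETS-type letters AGGAAG (in capitals, also where the other strand holds them as CTTCCT) fall.

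Emcn, + strand, chr3:137340828-137341077: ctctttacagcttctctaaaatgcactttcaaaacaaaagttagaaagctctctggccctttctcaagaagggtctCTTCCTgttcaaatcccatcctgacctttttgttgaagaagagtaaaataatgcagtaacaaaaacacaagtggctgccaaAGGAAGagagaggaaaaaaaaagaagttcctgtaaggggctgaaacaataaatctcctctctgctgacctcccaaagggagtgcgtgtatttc
Flt1, - strand, chr5:147726012-147726261: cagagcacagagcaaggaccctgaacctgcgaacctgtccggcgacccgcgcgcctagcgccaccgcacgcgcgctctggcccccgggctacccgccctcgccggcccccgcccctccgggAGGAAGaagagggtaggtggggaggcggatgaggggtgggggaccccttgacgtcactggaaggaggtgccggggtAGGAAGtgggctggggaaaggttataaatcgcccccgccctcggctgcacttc
Kdr, - strand, chr5:75978456-75978705: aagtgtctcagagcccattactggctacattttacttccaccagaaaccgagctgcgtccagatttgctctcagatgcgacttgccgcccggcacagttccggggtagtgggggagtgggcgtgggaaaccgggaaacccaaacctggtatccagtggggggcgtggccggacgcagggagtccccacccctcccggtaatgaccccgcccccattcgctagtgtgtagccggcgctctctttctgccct

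AGGAAG on either strand was found in 4 of the 6 windows (Flt1, Emcn and Eng at 2 positions each, Tie1 at 1), and in 29.5% of all 32851 windows of this length. AGATAA, to which GATA factors bind, was in 0 of 6 against 9.99% of all windows. TATAAA was in 1 of 6, that of Flt1, against 12.4%. No motif overlapped another of the 3 searched in the windows printed. A match of letters is a description of the sequence and says nothing about binding in these mice.

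The VEGF receptors differed between the pairs. Flt1, the decoy-like receptor VEGFR1, had log2 channel levels of 10.92 and 10.21 in WT mice 1 and 2 and of 11.10 and 11.36 in KO mice 1 and 2. Both KO mice lay above both WT mice, and WT mouse 2 was the lowest by a wide margin. Its log2 ratios of KO over WT were 0.18 (pair 1) and 1.15 (pair 2), with a mean of 0.67 (SE 0.31, limma adjusted p = 0.46). Within pair 1 the arrays with KO in Cy5 and in Cy3 read -0.15 and 0.51, a gap wider than the pair's mean. The short-transcript probes gave 0.09 and 0.68 (base 2302) and -0.13 and 0.76 (base 4102) in pairs 1 and 2, and the probe at base 1858 was not well above background in any of the 8 tissue channels. Fewer endothelial cells and less RNA per cell cannot be told apart in whole tissue, here or for the genes that follow.

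Kdr, VEGFR2, the main signalling receptor for VEGF, had levels of 12.36 and 12.31 in WT and of 12.48 and 12.63 in KO, so that KO lay above WT in both pairs by little. Its probe on mm9 chr5:76329309-76329368 was marked as an outlier on 1 of the 4 arrays, so Kdr was not among the genes tested. With that spot kept, its log2 ratios were 0.12 and 0.32 (mean 0.22, SE 0.09, limma adjusted p = 0.58 over 36610 genes with no filter). The other 2 Kdr probes were above background in 0 of 8 channels.

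The genes of the angiopoietin receptor TIE2 and of its partner TIE1 were both low in signal. Tek, which encodes TIE2, read 8.55 and 8.27 in WT and 8.68 and 8.83 in KO, and the groups did not overlap. Its log2 ratios were 0.13 and 0.56 (mean 0.35, SE 0.15, limma adjusted p = 0.43). In pair 2 the arrays with KO in Cy5 and in Cy3 read 0.91 and 0.21. Tie1 read 7.91 and 7.78 in WT and 7.92 and 8.15 in KO, again without overlap. It was well above background in 6 of 8 channels and so did not enter the test, and its log2 ratios were 0.01 and 0.36.

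Among the junction genes Cdh5 and Pecam1 parted. Cdh5, VE-cadherin, the adhesion protein of endothelial junctions, read 10.64 and 10.07 in WT and 10.48 and 10.98 in KO. The groups overlapped, since KO mouse 1 lay below WT mouse 1. The log2 ratios were -0.17 and 0.92 (mean 0.38, SE 0.34, limma adjusted p = 0.67), and the dye-swapped arrays differed by little in either pair, with -0.17 and -0.17 in pair 1 and 0.90 and 0.94 in pair 2. Pecam1, which encodes CD31, the common endothelial stain, read 9.67 and 8.98 in WT and 9.63 and 9.08 in KO. Both mice of replicate 1 were high and both of replicate 2 low, whatever the genotype, and the log2 ratios were -0.04 and 0.10 (mean 0.03, SE 0.07, limma adjusted p = 0.90). The same probe was well above background in 12 of 12 channels of epithelial organoids, and which cells gave its signal in tissue was not tested. Esam, an adhesion molecule of tight junctions in endothelium and platelets, read 11.62 and 10.89 in WT and 11.75 and 11.41 in KO with an outlier spot on 1 array kept. Its log2 ratios were 0.12 and 0.51 (mean 0.32, SE 0.13, limma adjusted p = 0.57 over 36610 genes), and it was not among the genes tested.

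The largest difference among the members was that of Emcn, endomucin, a sialylated surface protein of capillaries and veins. Its levels were 11.21 and 10.19 in WT and 11.28 and 11.47 in KO, on a probe at mm9 chr3:137093811-137093870, plus strand. WT mouse 2 stood about 1 log2 unit below the other 3 mice, which lay close together. The log2 ratios were 0.08 and 1.28, which is 2.42-fold in pair 2 (mean 0.68, SE 0.38, limma adjusted p = 0.51). The pair 2 arrays with KO in Cy5 and in Cy3 read 1.17 and 1.38. Of the 14839 genes tested, 99.3% had a pair 2 ratio no higher than that of Emcn.

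Vwf, von Willebrand factor, which tethers platelets and coagulation factor VIII, read 13.01 and 12.54 in WT and 12.95 and 13.21 in KO, with overlapping groups. Its log2 ratios were -0.06 and 0.67 (mean 0.30, SE 0.23, limma adjusted p = 0.62). The other 2 Vwf probes were above background in 4 of 8 channels each and read -0.97 and -0.41 in pair 1 and 0.39 and 0.15 in pair 2. Eng, endoglin, a co-receptor for BMP9 on endothelium, read 8.14 and 8.87 in WT and 8.15 and 9.39 in KO with outlier spots on 2 arrays kept. It was the exception in WT, where mouse 2 was the higher, and its log2 ratios were 0.01 and 0.52. Both outlier spots were in pair 2, where the arrays with KO in Cy5 and in Cy3 read 0.93 and 0.10.

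**Figure D1:**
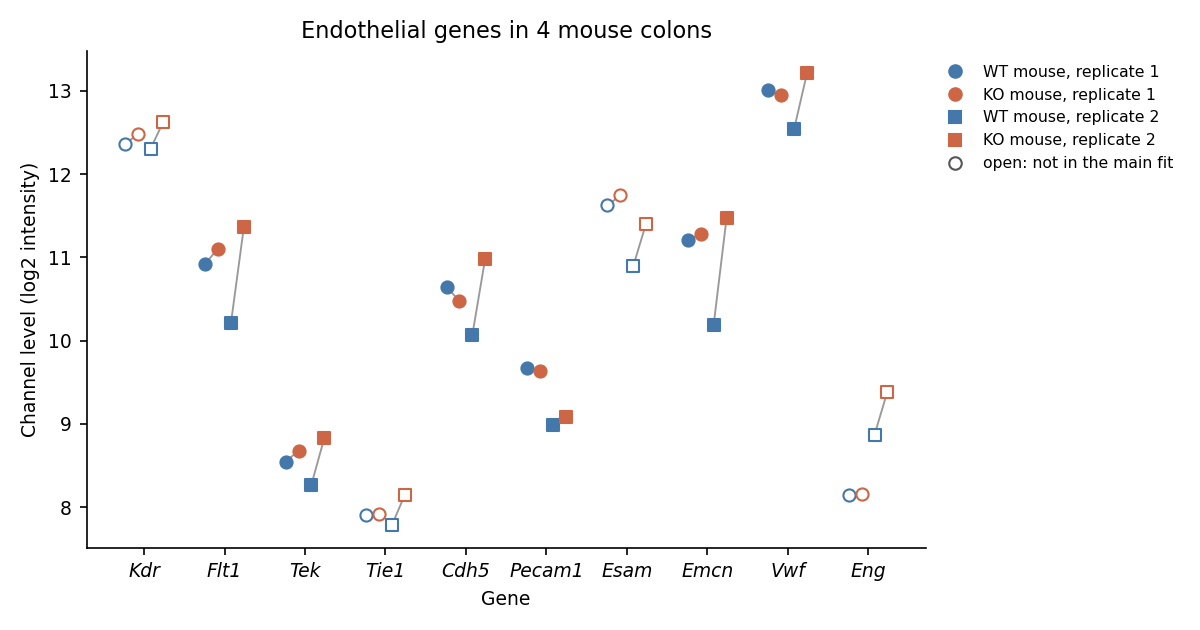
Channel level (log2 intensity, vertical axis) of each endothelial gene in each of the 4 mouse colons, averaged over both dyes, with a line joining the mice of a pair. Filled points are the 6 genes tested and open points the 4 that were not (outlier spots kept). Compare points within a gene only: WT mouse 2 (blue square) was the lowest mouse for 9 of 10 genes and KO mouse 2 (orange square) the highest for 8 of 10.

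As a group the 6 members tested had a positive mean in 6 of 6, against 7183 of all 14839 genes tested. Their median log2 KO over WT was 0.36, against 0.00 for all genes tested. By pair the medians were 0.02 and 0.79. Limma on the pair ratios called 0 of the 6 at an adjusted p under 0.05 and 0 of 14839 genes (0%), with a smallest adjusted p of 0.274 and 2103 genes at an unadjusted p under 0.05. With the 4 arrays taken as independent limma called none of the members and 488 genes higher (3.29%). Values were positive in both pairs for 3 of 6 members (Emcn, Flt1 and Tek), against 31.2% of genes tested, and both KO mice lay above both WT mice for the same 3, against 13.8%. For each of these 3 the pair 1 arrays had opposite signs. With KO in Cy5 and in Cy3 they read -0.18 and 0.33 for Emcn, -0.15 and 0.51 for Flt1, and 0.31 and -0.05 for Tek. With 2 mice a group and the pairing set aside, an exact permutation test on a single gene cannot give a p under 0.333. Keeping the pairs allows fewer arrangements still.

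The pair 2 difference can be set beside the levels of the 4 mice. Mice of pair 1 and of pair 2 shared no array, so differences between mouse 1 and mouse 2 cannot be told apart from differences between arrays. From WT mouse 1 to WT mouse 2 the 6 members differed by a median of -0.63 on the log2 scale, and from KO mouse 1 to KO mouse 2 by 0.22. Over all genes tested these medians were 0.04 and 0.06. With all 10 members and outlier spots kept, WT mouse 2 was the lowest mouse for 9 and KO mouse 2 the highest for 8, where 20.2% and 27.0% of genes tested had that mouse lowest or highest. All 10 had a positive ratio in pair 2, between 0.10 and 1.28, and 7 had one in pair 1, between -0.19 and 0.15 over the 10. Over all genes tested 49.6% had a positive ratio in pair 2 and 47.2% in pair 1. Without WT mouse 2, in a fit of the separate channels, the median of the 6 was 0.13 in place of 0.36.

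**Figure D2:**
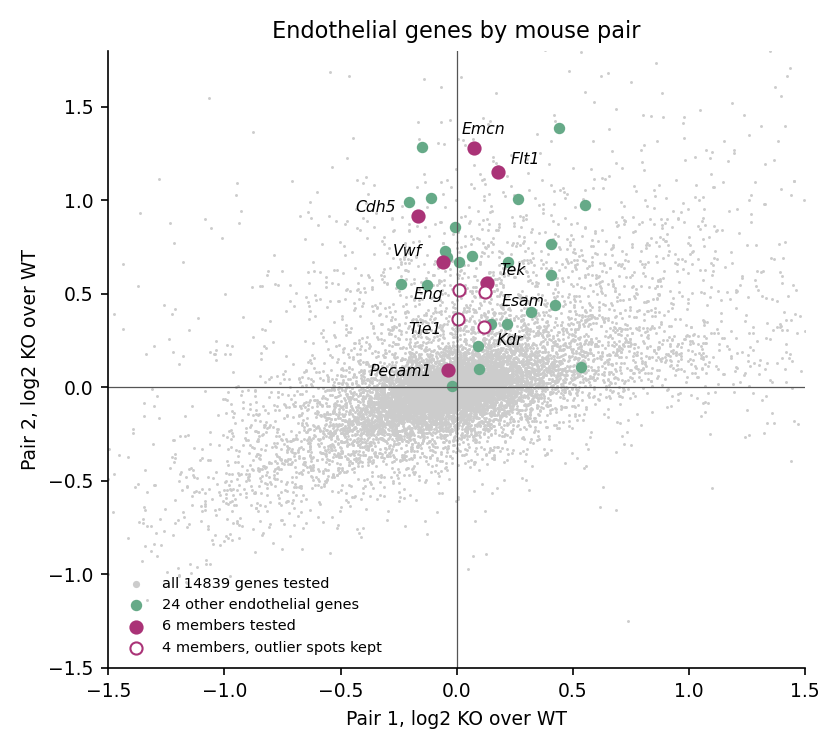
Log2 KO over WT in pair 1 (horizontal axis) and in pair 2 (vertical axis) for all 14839 genes tested (grey), 24 other endothelial genes (green) and the members (purple, open where outlier spots were kept). The members spread along the vertical axis, from 0.10 to 1.28 in pair 2, and stay between -0.17 and 0.18 in pair 1, and 233 genes lie outside the axes.

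Other genes of blood vessel endothelium were read from a fixed list of 30, of which 24 were tested. Their mean was positive for 23 of 24, against 7183 of all 14839 genes tested. The median was 0.37 (pairs 0.09 and 0.67), and 15 were positive in both pairs, against 31.2% of genes tested. Limma called none. Calcrl, the receptor for adrenomedullin, read 10.38 and 10.26 in WT and 10.82 and 11.65 in KO (log2 ratios 0.44 and 1.39). Thbd, thrombomodulin, which turns thrombin into an anticoagulant, read 11.46 and 11.43 in WT and 12.01 and 12.40 in KO (0.56 and 0.97). For both genes the WT mice lay together and the KO mice apart from them. Cldn5, the claudin of endothelial tight junctions, had ratios of 0.42 and 0.44, and Icam2 and Mmrn2 had 0.41 and 0.77, and 0.26 and 1.01. The lowest of the list was Arhgef15, at -0.01.

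The transcription factors of the endothelial programme had a median of 0.46 over 14 tested (pairs 0.14 and 0.70). Of these, 9 were positive in both pairs, against 31.2% of all genes tested. Tal1, a regulator shared by blood and vessel precursors, read 8.86 and 7.81 in WT and 9.01 and 9.04 in KO, and its relative Lyl1 10.72 and 9.98 in WT and 10.90 and 11.18 in KO. Both repeat the order seen for Emcn, with WT mouse 2 alone at the bottom. Elk3, an ETS factor, differed in both pairs by 0.69 and 0.48, and Sox7 by 1.99 and 0.35. Klf2, which responds to blood flow, had ratios of 0.19 and 0.72. Sox17, an arterial factor, had -1.22 and 0.77, so its direction differed between the pairs.

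Ligands and regulators of the receptors had a median of 0.05 over 9 tested. Angpt1, the agonist of TIE2, had close ratios in both pairs: it read 8.79 and 8.66 in WT and 9.72 and 9.61 in KO (log2 ratios 0.93 and 0.94, mean 0.94, SE 0.06, limma adjusted p = 0.27). Vegfd read 9.31 and 9.20 in WT and 9.81 and 10.38 in KO, with ratios of 0.50 and 1.17. The co-receptor Nrp1 had 0.67 and 0.27, and Vegfb 0.43 and 0.19. Vegfa, the principal ligand of VEGFR2, had -0.46 and -0.12 (mean -0.29, SE 0.12, limma adjusted p = 0.43), and the phosphatase gene Ptprj -0.34 and -0.14. Hif1a had -0.04 and -0.03, and the co-receptor Nrp2 0.00 and -0.05. Angpt2, Angpt4, Apln and Pgf were not detected by the filter on background.

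Notch and BMP genes of endothelium had a median of 0.00 over 8 tested. Acvrl1, the receptor that pairs with endoglin, had ratios of 0.22 and 0.78, Bmpr2 0.46 and 0.20, and Jag2 0.82 and 0.30. Smad7 and Smad6, inhibitors of these pathways, had -0.99 and -0.14, and -0.57 and -0.05, and both KO mice lay below both WT mice for each, as for 14.3% of all genes tested. In the same list both KO mice lay above both WT mice for 2 genes, Acvrl1 and Bmpr2, as for 13.8% of all genes tested. Notch4 had -0.14 and -0.16. Genes of activated endothelium and leukocyte adhesion had a median of 0.30 over 6: Vcam1 read 10.18 and 9.18 in WT and 10.04 and 10.83 in KO (ratios -0.14 and 1.65), Selp had 0.04 and 0.81, Icam1 0.21 and 0.40, Ackr1 0.21 and 0.37, and Edn1, endothelin, -0.87 and -0.17.

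Lymphatic endothelium had a median of 0.45 over 5 genes tested (pairs 0.29 and 0.53). Of these, Reln, Pdpn, Mmrn1 and Ccl21a were positive in both pairs, and both KO mice lay above both WT mice for each of these 4. Over all genes tested these shares were 31.2% and 13.8%. Reln, an extracellular signal made by lymphatic vessels, read 11.32 and 11.32 in WT and 11.87 and 11.85 in KO. Prox1, the factor that sets lymphatic identity and is also made in other gut cells, read 13.67 and 8.29 in WT and 12.43 and 8.54 in KO, so both mice of replicate 1 lay far above both of replicate 2. Pericytes, the contractile cells wrapped around capillaries, had a median of 0.37 over 7 genes (pairs 0.34 and 0.39). Abcc9 and Kcnj8, which form a potassium channel, had ratios of 0.55 and 0.68, and 0.34 and 0.39. Rgs5 had 0.15 and 0.97.

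Markers of some other cells also had larger ratios in pair 2 than in pair 1. Of 7 leukocyte genes 6 were detected and Cd79a was not, and the 4 tested had medians of 0.12 and 1.12. Their summed level, on the linear scale, was 19249 and 10893 in WT and 20516 and 19989 in KO, with WT mouse 2 the lowest. Summed over the 6 members it was 15331 and 10203 in WT and 15219 and 17958 in KO, also with WT mouse 2 the lowest. Ptprc, CD45, carried by all leukocytes, had ratios of -0.25 and 1.96, and Adgre1, of macrophages, 0.54 and 1.79. Fibroblast genes had pair medians of 0.10 and 0.40 and adipocyte genes 0.22 and 0.80, with a summed adipocyte level of 25347 and 64556 in WT and 33079 and 94870 in KO. Each sum weighs its brightest probe most, which was Vwf for the members, Csf1r for leukocytes and Fabp4 for adipocytes. It is therefore not a measure of the amount of a cell type. All 9 colon epithelium genes were negative in both pairs (medians -0.16 and -0.10), as were 5111 of all 14839 genes tested. Cdx2 lay at -1.20 and -0.96, and the next lowest by mean, Krt18, at -0.18 and -0.17. Platelet genes, of which 4 of 8 were detected, had a median of 0.27, and red blood cells had only Hba-a1 of 6 genes detected, at 0.07. Other lists had the larger ratios in pair 1. Skeletal muscle genes had pair medians of 0.41 and 0.22, squamous epithelium 0.39 and 0.08, smooth muscle 0.24 and 0.08, and enteric neurons and glia 0.26 and 0.01. The mean ratio was positive for all 7 skeletal muscle, all 6 smooth muscle and all 6 squamous epithelium genes tested. Over all genes tested it was positive for 7183 of 14839. The part of any of these cells in the values of the members was not tested.

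**Figure D3:**
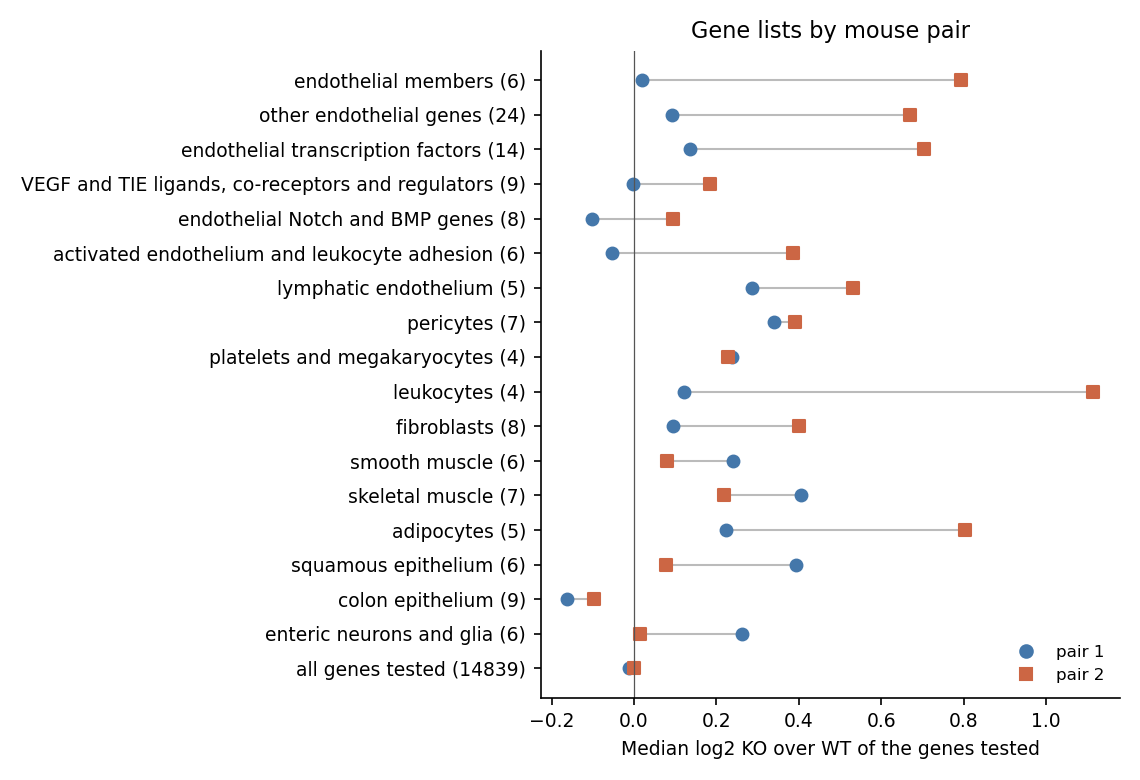
Median log2 KO over WT (horizontal axis) of each gene list in pair 1 (blue circle) and pair 2 (orange square), with the number of genes tested in brackets, for lists with at least 4. The members go from 0.02 to 0.79 and leukocytes from 0.12 to 1.12, while pericytes stay at 0.34 and 0.39 and all genes tested near 0.

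The genes outside the member list with the pattern nearest to that of the members over the 4 mice were Cd48, Plxnd1, Spon2, Cd93, Gpr183, Robo4, Tbx1 and Cd200. Likeness was the Euclidean distance between the centred log2 levels of the 4 mice and the median profile of the 6 members. It ran from 0.09 to 0.13 for these 8, against a median of 0.68 over all genes tested and 0.16 to 0.68 for the members themselves. The median profile, centred, was 0.09 and -0.43 in WT and 0.15 and 0.36 in KO. Cd93 and Robo4 are among the endothelial genes listed above, and Cd48 is a leukocyte surface protein. With 4 values a gene the distance describes these mice only.

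In organoids, where vessels are absent, 6 of the 10 genes (Kdr, Tek, Cdh5, Emcn, Eng and Tie1) were well above background in 0 of 6 samples. Pecam1 and Vwf were above it in all 6, Esam in 3 and Flt1 in 2. A sample counted as above background when both of its channels were.

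Pecam1 was well above background in 12 of 12 organoid channels, at log2 levels of 10.21 and 11.30 in WT, 10.89 and 10.92 in KO and 11.58 and 11.39 in KOWI with outlier spots kept. It has 1 probe on the array, at mm9 chr11:106540864-106540923 on the minus strand, and that spot was marked as an outlier on 4 of the 6 organoid arrays, so Pecam1 was not tested there. What the probe reads in cultures in which VE-cadherin, endomucin, TIE2 and VEGFR2 transcripts were not above background was not tested. Its first 30 bases are shown for that reason, with no base singled out.

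Pecam1, base 2242 of its transcript: ccccagaacatggatgtagaatacacagaa

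Vwf was read in organoids at 7.76 and 7.43 in WT, 8.01 and 8.36 in KO and 7.92 and 8.22 in KOWI. Both KO and both KOWI samples lay above both WT samples, an order whose share over all organoid genes was not worked out. The log2 difference from WT was 0.59 in KO (SE 0.24, limma adjusted p = 0.79) and 0.61 in KOWI (SE 0.24, limma adjusted p = 0.18), and neither passed. The difference in KO was 0.30 without KO replicate 1 and 0.84 without KO replicate 2, and that in KOWI was 0.26 without KOWI replicate 2 and 0.99 without KOWI replicate 1. On the other 2 Vwf probes, with outlier spots kept, the log2 difference of KO from WT was 0.01 and 0.21. Those probes were well above background in 0 and 1 organoid samples. Limma called 1 of 9114 genes between KO and WT (0.011%), 825 between KOWI and WT (9.05%) and 233 between KOWI and KO (2.56%). The labels name no source mouse for an organoid sample, so these p-values cover only the spread between samples, which may be technical.

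Flt1 entered the organoid test only through the KOWI samples, so its test gives no support of its own. Its levels were 6.87 and 6.63 in WT, 6.94 and 6.75 in KO and 7.31 and 7.78 in KOWI, and it was well above background in both KOWI samples and in no WT or KO sample. On the mean of its 2 samples KOWI lay 1.63-fold above WT and 1.53-fold above KO. For this the dim level was set at the higher of its own signal and the dimmest signal well above background on each array. These dim levels were 6.95 and 6.75 in WT and 6.97 and 6.90 in KO, so KOWI sample 1 stood above them by less than the means. The fitted log2 difference, which reads the dim WT signal, was 0.75 (SE 0.17, limma adjusted p = 0.046), and that from KO was 0.68 (limma adjusted p = 0.107). The difference from WT missed the threshold under 10 of 11 alternatives, with limma adjusted p from 0.054 with no replicate block to 0.626 without WT replicate 1. Its size was 0.67 to 0.92 in 9 of these 10 and 0.28 with no filter, which reads the probe at base 4102. With no background correction it was 1.24 (limma adjusted p = 0.029). The short-transcript probe at base 2302 was also above background in both KOWI samples alone, at 7.44 and 7.55. The probe at base 4102 was above background in KOWI sample 2 alone and read 6.82 and 7.20 in WT, 7.36 and 6.82 in KO and 6.90 and 7.41 in KOWI, with overlapping groups.

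Esam was above background in KO sample 1 and both KOWI samples. With an outlier spot kept it read 7.39 and 7.16 in WT, 7.20 and 6.96 in KO and 7.48 and 8.13 in KOWI, and WT and KO overlapped. It was left out of the test by that spot. Kdr, the partner of Flt1 in sensing VEGF, stayed between 6.41 and 6.81 in all 6 samples, not well above background.

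**Figure D4:**
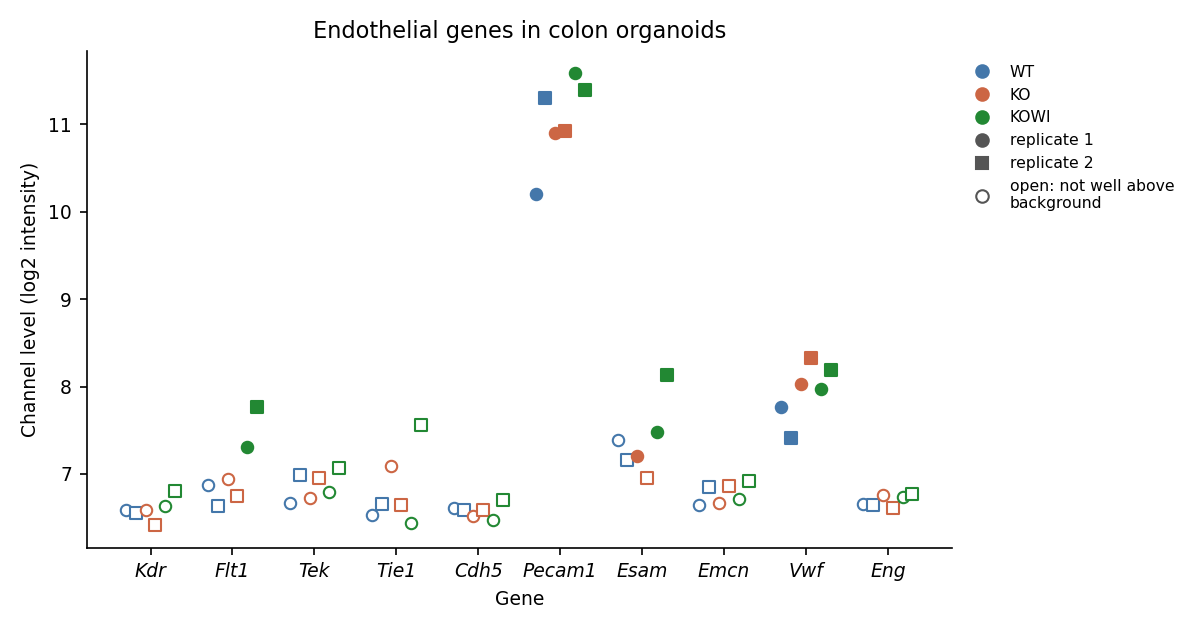
Channel level (log2 intensity, vertical axis) of the brightest tissue probe of each member in the 6 organoid samples, outlier spots kept. Filled points are samples with the probe well above background and open points are not. Only Pecam1 and Vwf are filled in all 6 samples, and Flt1 only in the 2 KOWI samples.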

How the data were processed

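RNA of 4 mouse colons (4 arrays) and 6 organoid samples (6 arrays) was hybridised in 2 colours. Per the file headers, Agilent Feature Extraction 12.2.0.7 produced the values (array design 074809, probe positions on mm9). Mean and background intensity of each spot were deposited without normalization, beside a log10 ratio, per the file headers Cy5 over Cy3. A log2 table deposited by the authors was made with limma, per the submitters' processing notes. It too ran Cy5 over Cy3, with column medians from -0.000581 to 0.0171, and its centring is unknown.

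Ratios were recomputed in R 4.3.3 with limma 3.58.1: normexp (offset 50), then loess within arrays, control and outlier spots at weight 0. Outlier spots (1.94% to 5.12% a tissue array, 1.27% to 16.3% an organoid array) were set to missing. On the organoid arrays with KOWI they were 13.9% to 16.3%, and on those without it 1.27% and 2.65%. Of 18471 genes detected in organoids, 9114 had no outlier spot and were tested. A channel had 42.3% to 57.3% of its spots well above background. A gene was read from its brightest probe among those well above background throughout 1 group. Tissue dye swaps were averaged to a ratio per pair, tested against 0. Channel levels are Aquantile-normalized means, over both dyes in tissue. An organoid sample was read in the same dye on each of its arrays, so the dye is not averaged out of its level. Organoid ratios were solved for 6 sample values and tested for group, with the replicate number, which is also the dye, as a term. In 1 tissue label the Cy3 source's number differs from the title, which was used. P-values were adjusted by Benjamini-Hochberg at 0.05, and the code was tested on simulated data. Few arrays limit the precision.

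The members and all gene lists were chosen with earlier results of these data known. Named genes are all members, up to 4 genes a direction with the largest mean among same-sign genes of each other list, and the 8 nearest in pattern. Arhgef15, Cldn5, Klf2, Sox17, Vcam1, Prox1 and Ptprc were named after their values were seen. Alternatives changed the background correction, the normalization, the source of the ratios, the probe choice, the filters, the pairing and each sample.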

Additional observations from a re-analysis of the deposited data

How the results depend on the processing

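In tissue the median of the members tested stayed positive under every alternative run, between 0.02 without replicate 2 and 0.79 without replicate 1, each of which leaves 1 pair and no test. Genes called in tissue stayed at 0 without any 1 mouse, and also with no replicate block (0 genes, smallest limma adjusted p = 0.824, median of the members 0.36). They were 938 with median centring, where the prior degrees of freedom of limma went from 1.61 to infinite, and 956 with the 4 arrays taken as independent, and no member was called under either. The replicate-2 minus replicate-1 differences of WT and KO correlated across genes with r = 0.742. The WT and KO mouse of a pair were read on the same arrays, so differences between arrays enter both sides and a positive r is partly built in. The labels tie the numbers to no litter or batch. Members positive in both pairs were 5 of 9 in the authors' value table and 6 of 9 with outlier spots kept. They were 7 of 10 with no filter as well, against 29.2% of all genes in that setting. That setting was chosen after seeing the data, since more members then had values. Pecam1 turned to -0.027 with median centring, and without 1 mouse or pair it ran from -0.31 to 0.37, Cdh5 from -0.17 to 0.92 and Vwf from -0.061 to 0.67.

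In organoids the 1 gene called between KO and WT became 0 with no background correction, median centring, outlier spots kept or no replicate block, and 0 to 23 when 1 sample was left out (23 without KO replicate 1). Genes called between KOWI and WT were 144 with median centring, 407 with no filter, 15 with outlier spots kept, 464 with no replicate block and 16 to 977 when 1 sample was left out. Between KOWI and KO they were 4, 42, 0 and 118 under the same 4 settings, and 0 to 214 when 1 sample was left out. Flt1 in KO over WT read -0.075 with no filter, which reads another probe, and -0.047 to 0.15 without 1 sample, and Vwf in KOWI over KO -0.36 to 0.36. By the rule of a mean at least 2 times local background, Esam was above background in 4 organoid samples. Except where stated, the cause was not tested. Not well above background limits 6 members in organoids and Tie1 in tissue.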
